A study of Mus musculus with 28 samples.

Results

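A set of 10 genes of the lysosomal antigen-processing machinery was followed in dendritic cells of the mouse kidney: the cathepsins Ctss, Ctsl, Ctsb, Ctsc, Ctsh, Ctsz and Ctsd, the endopeptidase Lgmn, the thiol reductase Ifi30 and the cathepsin inhibitor Cst3. The genes were chosen by name, with earlier results of these data known, and each was read from the probeset that maps to its symbol alone. All 10 had exactly 1 such probeset, out of 19272 genes with one, and all 10 were among the 14346 genes bright enough to be tested. In build GRCm38.p6 the genes lie at chr3:95526786-95556405 (Ctss), chr13:64361890-64370772 (Ctsl), chr14:63122462-63145923 (Ctsb), chr7:88278024-88315861 (Ctsc), chr9:90054267-90076095 (Ctsh), chr2:174427494-174439039 (Ctsz), chr7:142375910-142387827 (Ctsd), chr12:102394082-102439728 (Lgmn), chr8:70762773-70766663 (Ifi30) and chr2:148871722-148875512 (Cst3). Of the 10, Ctss, Ctsc, Ctsz, Ctsh, Ifi30, Lgmn and Cst3 had lower array signal in host cells of the graft medulla than in homeostatic C57BL/6 medulla on the deposited scale. When arrays were centred on leukocyte genes, Ctsz, Ctsh, Ifi30, Lgmn and Cst3 changed sign, Ctsc came close to no difference (-0.09) and Ctss stayed lower. Ctsl was higher in host medulla than in C57BL/6 medulla. Ctsd and Ctsl were higher in donor cells of the graft cortex than in homeostatic BALB/c cortex.

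Dendritic cells present peptides on MHC class II molecules, which reach the endosome with the invariant chain Cd74 in their groove. Cysteine proteases and Lgmn cut the invariant chain stepwise, and Ctss, the protease of professional antigen-presenting cells, makes the last cut before peptide loading. In mice, Ctsl makes that cut in thymic cortical epithelium. The same enzymes digest the antigen itself: Ctsd is an aspartic endopeptidase, Ctsb a cysteine protease that acts as endopeptidase and as carboxydipeptidase, Ctsh mainly an aminopeptidase, Ctsz a carboxypeptidase and Ctsc a dipeptidyl aminopeptidase known for activating granzymes and neutrophil serine proteases. Ifi30 (GILT) opens disulfide bonds of endocytosed protein and is induced by interferon-gamma, and Cst3 (cystatin C) is a secreted inhibitor of cysteine cathepsins that mouse dendritic cells express strongly. Lysosomal proteases are not restricted to leukocytes, and tubule epithelium of the kidney, which takes up filtered protein, also contains them.

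Upstream sequence was available for 8 of the 10 genes (all but Ctsb and Ctsh) in the RefSeq table of build GRCm38.p6. The 250 bases before the annotated start are shown for 3 genes: Ctsd, Ifi30, which carries the same box as Ctsd, and Ctss, the gene with the widest span of group means. Capitals mark the palindromic E-box CACGTG, extended to TCACGTGA where the flanking letters are present, and in Ctss the core of the interferon-stimulated response element. The windows are chr7:142387828-142388077 (minus strand) for Ctsd, chr8:70766664-70766913 (minus strand) for Ifi30 and chr3:95526536-95526785 (plus strand) for Ctss.
Ctsd: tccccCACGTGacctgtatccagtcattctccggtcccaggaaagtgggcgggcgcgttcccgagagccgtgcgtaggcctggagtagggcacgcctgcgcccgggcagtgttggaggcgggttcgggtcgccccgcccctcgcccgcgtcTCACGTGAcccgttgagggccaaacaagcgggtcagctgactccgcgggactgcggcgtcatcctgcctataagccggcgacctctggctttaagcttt
Ifi30: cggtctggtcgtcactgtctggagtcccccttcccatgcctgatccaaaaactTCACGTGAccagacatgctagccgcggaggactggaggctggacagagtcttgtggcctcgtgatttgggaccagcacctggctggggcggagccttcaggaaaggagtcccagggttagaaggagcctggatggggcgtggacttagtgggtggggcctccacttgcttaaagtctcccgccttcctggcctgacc
Ctss: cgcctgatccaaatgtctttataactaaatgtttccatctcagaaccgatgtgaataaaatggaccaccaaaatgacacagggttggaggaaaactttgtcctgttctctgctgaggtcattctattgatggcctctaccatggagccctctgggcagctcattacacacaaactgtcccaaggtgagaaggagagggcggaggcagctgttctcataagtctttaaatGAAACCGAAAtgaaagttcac

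CACGTG, searched on both strands in the 300 bases that the table holds around each start (250 before and 50 after), is the core of the element bound by TFEB, a transcription factor of lysosomal genes. It lies at -245 and at -98 in Ctsd and at -196 in Ifi30, counting the first base of the match from the start. It also lies at -236 in Ctsl and at -49 in 1 of the windows of Lgmn, but both of these windows stand before an annotated start inside the gene, not upstream of it. Thus 4 of the 9 windows of these genes hold it, against 7.15% of 32851 promoters in the table. The longer TCACGTGA, which contains it, is present in Ctsd and Ifi30 and in 0.974% of promoters. The interferon-stimulated response element core is present in Ctss at -21 and in 3.44% of promoters, and the gamma-activated site TTCNNNGAA in Ctsc and in 8.3%. These matches are letters in a window, and binding was not measured.

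The cells were sorted from digested kidneys by CD45, CD11c and MHC class II, and their total RNA was amplified and measured on 28 Affymetrix arrays. Grafts were taken 3 days after transplantation, and 4 groups of 3 arrays came from them: donor cells (CD45.2, labelled BALB/c) and host cells (CD45.1, labelled C57BL/6), each from medulla and from cortex. The other 4 groups of 4 arrays held cells of healthy, homeostatic kidneys of BALB/c and of C57BL/6 mice, again from medulla and from cortex. Donor and host cells of both regions came from the same 3 grafts by their mouse numbers, and the medulla and cortex of each homeostatic group from the same 4 mice. Labels give no CD45 allele for the homeostatic mice, and no arrays of a syngeneic graft or of host cells outside the graft were analysed here, so transplantation, residence in the kidney and cell origin are not separated in the host comparison. Values are log2 array signal, a unit of 1 being a doubling, and no level of one gene is set against that of another.

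The marker genes of the sort were not equally high in all groups. Ptprc (CD45) averaged 9.67 ± 1.09 in host medulla (SD, n = 3), between 11.23 and 12.03 in the other graft groups, and between 12.52 and 12.79 in the homeostatic groups. H2-Ab1, a class II chain, averaged 9.54 ± 1.19 in host medulla and 13.24 ± 0.07 in C57BL/6 medulla. Itgax (CD11c) exceeded 40 percent of the gene probesets on the same array (a bound of 7.26 to 7.62) on 1 of 3 donor medulla arrays, 2 of 3 host medulla arrays and 3 of 4 BALB/c medulla arrays, and on all arrays of the other 5 groups. A list of 21 leukocyte-wide genes averaged 8.82 ± 0.59 in host medulla against 11.63 ± 0.04 in C57BL/6 medulla, with 18 of 21 genes lower, while all 15 epithelium-wide genes were higher there (10.36 ± 0.16 against 7.91 ± 0.15). In such sorted bulk RNA, fewer leukocytes in the sort and less RNA per leukocyte cannot be told apart. Within host cortex the leukocyte-wide mean was 11.39, 10.43 and 9.37 on the 3 arrays. BALB/c medulla replicate 1 correlated with its own group at 0.759, against 0.829 to 0.947 for the other 27 arrays.

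**Figure D1:**
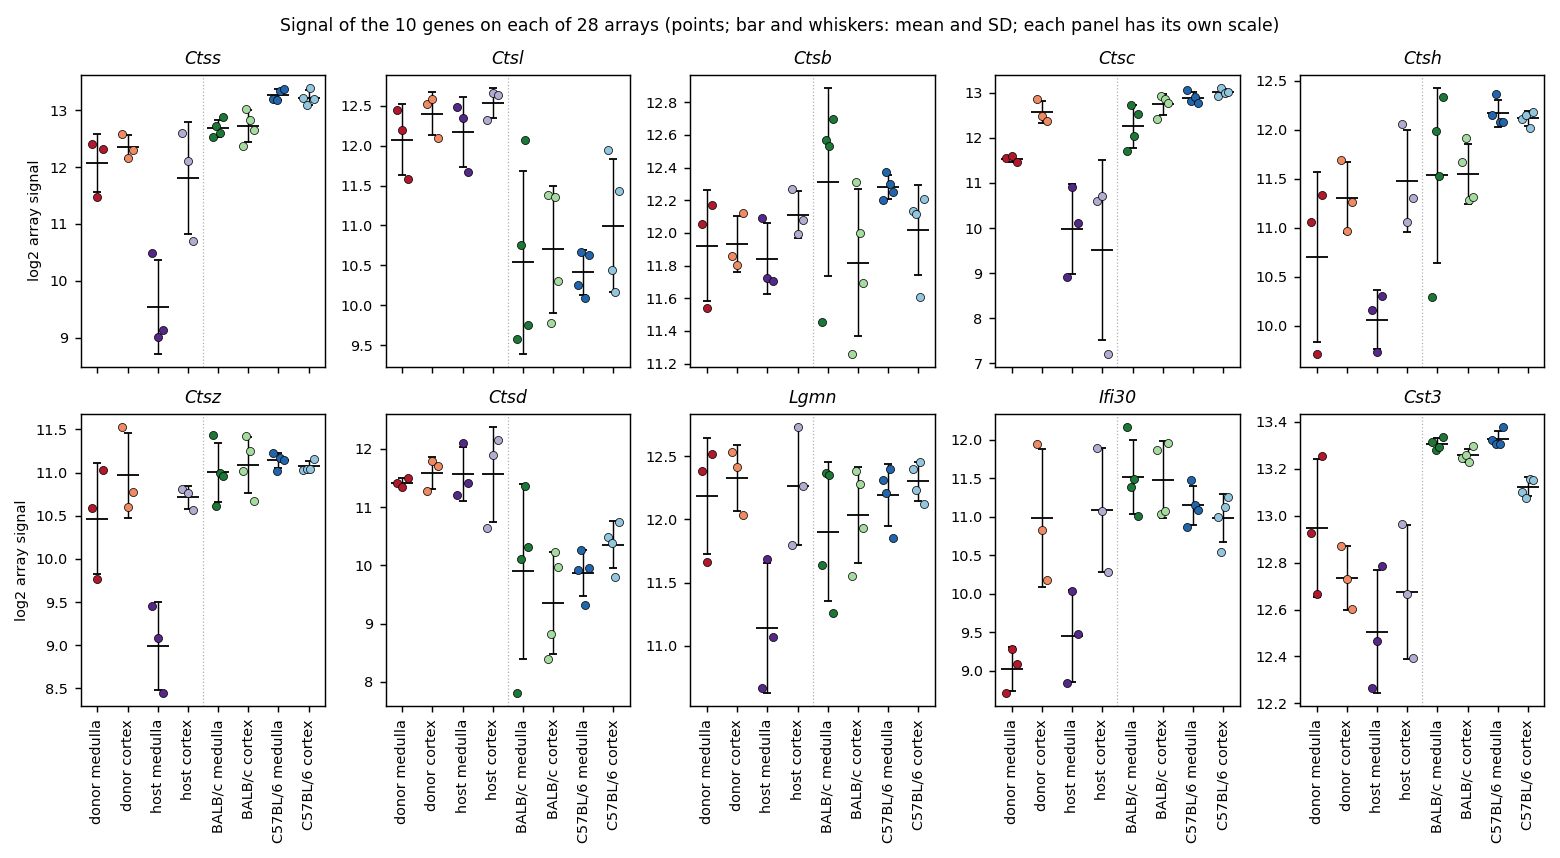
Log2 array signal (vertical axis) of the 10 genes on each of the 28 arrays, by group; points are arrays, and bars with whiskers are mean and SD of a group. Ctss is lowest on the 3 host medulla arrays (9.01 to 10.49), Ctsc is low in both host groups (7.22 to 10.91), and Ctsl and Ctsd have higher means in the 4 graft groups than in the 4 homeostatic groups.

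Host cells of the graft medulla differed most from their homeostatic counterparts. Against C57BL/6 medulla, 8 of the 10 genes passed at an adjusted p under 0.05 (limma, Benjamini-Hochberg adjustment over all genes tested), 7 lower and 1 higher, where 11.5% of all genes tested passed and 5.21% were lower. The ranges of the arrays did not overlap for 10 of 10 genes, against 24.3% of all genes. The median difference of the 10 genes was -1.38 on the log2 scale, against 0.07 over all genes tested. These directions hold on the deposited scale: when each array was centred on its leukocyte-wide genes, every difference in this comparison moved up by 2.81, the all-gene median became 2.88, and Ctsz, Ctsh, Lgmn, Ifi30 and Cst3 changed sign. On that scale 7 of the 10 genes passed, Ctss as lower and Ctsl, Ctsb, Ctsd, Lgmn, Ifi30 and Cst3 as higher. Of the 14346 genes tested, 13725 passed there as higher and 83 as lower, so passing as higher did not set these genes apart. Ctsl (4.57) and Ctsd (4.52) lay above the all-gene median of 2.88. Ctsb (2.37), Lgmn (1.76), Ifi30 (1.11) and Cst3 (1.99) lay below it.

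Ctss, the invariant-chain protease, showed the widest difference. It read 10.49, 9.01 and 9.13 in host medulla, against 13.19, 13.18, 13.33 and 13.37 in C57BL/6 medulla. All 3 host arrays lay below every homeostatic array, and the difference was -3.73 ± 0.34 (SE; adjusted p 9.34e-08), a 13.2-fold lower signal. Centred on the leukocyte-wide genes it was still lower (-0.92, adjusted p 0.00724). Over the 8 groups mean Ctss was highest in C57BL/6 medulla (13.27) and cortex (13.22), then in BALB/c cortex (12.72) and medulla (12.68), donor cortex (12.35), donor medulla (12.06), host cortex (11.81) and host medulla (9.54). In that order the arrays of host medulla were separate from those of host cortex and those of BALB/c cortex from those of C57BL/6 cortex, and all other neighbours overlapped.

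The exopeptidases Ctsz and Ctsh followed Ctss on the deposited scale. Ctsz, the carboxypeptidase, read 9.45, 9.08 and 8.44 in host medulla, against 11.22, 11.02, 11.17 and 11.15 in C57BL/6 medulla, a difference of -2.15 ± 0.27 (adjusted p 7.67e-06) that was 0.66 after leukocyte centring. Ctsh, the aminopeptidase, read 10.16, 9.73 and 10.30 in host medulla, against 12.16, 12.36, 12.08 and 12.08 in C57BL/6 medulla, a difference of -2.11 ± 0.38 (adjusted p 0.000485) that was 0.71 after leukocyte centring. For both genes the homeostatic arrays lay within a narrow band and the host arrays entirely below it.

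Lgmn, which starts the cleavage of invariant chain and activates other proteases, averaged 11.14 ± 0.51 in host medulla and 12.19 ± 0.24 in C57BL/6 medulla, a difference of -1.05 ± 0.29 (adjusted p 0.0195). Its call was lost without C57BL/6 medulla replicate 3 or host medulla replicate 1 or 3 (adjusted p 0.0567 to 0.13), and its sign turned after leukocyte centring (1.76). Cst3, the inhibitor, read 12.27, 12.46 and 12.78 in host medulla, against 13.32, 13.31, 13.31 and 13.38 in C57BL/6 medulla. The 4 homeostatic arrays were close together and all host arrays lay below them, with a difference of -0.82 ± 0.14 (adjusted p 0.000294) on the deposited scale and 1.99 after leukocyte centring.

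Ctsl went the other way. It read 12.49, 12.35 and 11.67 in host medulla, against 10.26, 10.67, 10.09 and 10.62 in C57BL/6 medulla, a difference of 1.76 ± 0.49 (adjusted p 0.0204). Without C57BL/6 medulla replicate 3 or host medulla replicate 1 or 2 the adjusted p was 0.0572 to 0.0831, and after leukocyte centring the difference was 4.57 (adjusted p 2.37e-07). Ctsd averaged 11.57 ± 0.46 in host medulla and 9.87 ± 0.39 in C57BL/6 medulla, and its difference of 1.71 (95% interval 0.54 to 2.87) missed the threshold at an adjusted p of 0.0525, although the arrays did not overlap. It passed with the mouse as a random block (adjusted p 0.0416), with the strict filter on dim genes (adjusted p 0.0445), in a fit of these groups alone (adjusted p 0.0113) and after leukocyte centring (4.52, adjusted p 6.96e-07). Ctsd did not pass without the filter, under a second quantile normalization, with a variance trend or in any fit that left out a single array. Ctsb averaged 11.84 ± 0.22 in host medulla and 12.28 ± 0.07 in C57BL/6 medulla, a difference of -0.44 (95% interval -0.97 to 0.09, adjusted p 0.354).

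**Figure D2:**
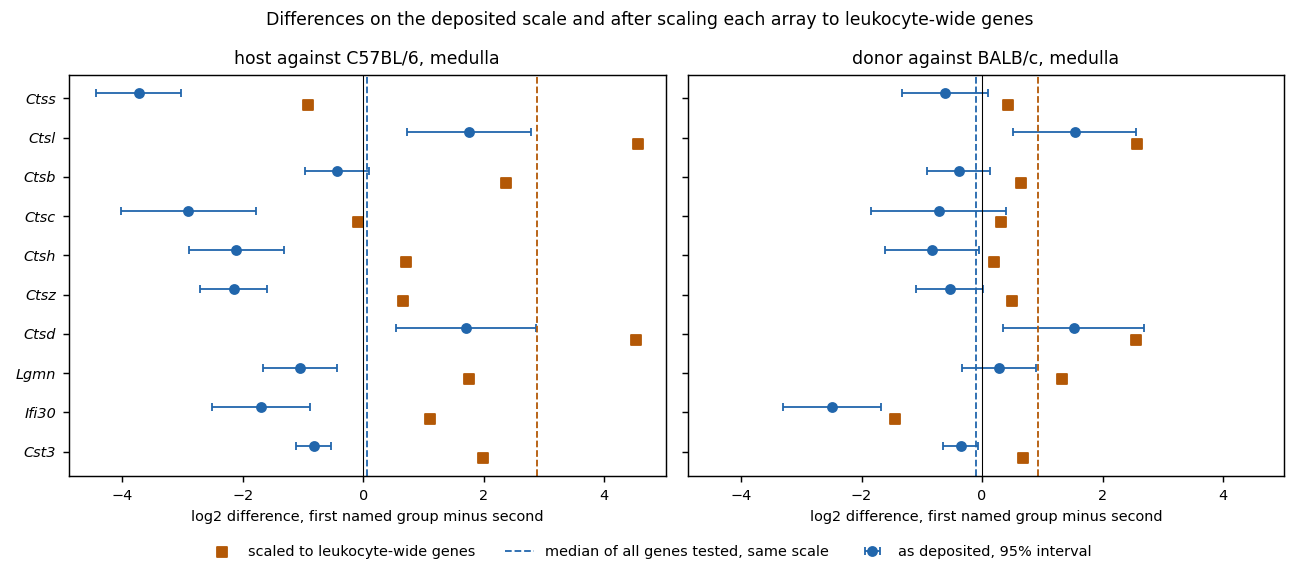
Log2 difference of each of the 10 genes for host against C57BL/6 medulla and donor against BALB/c medulla, on the deposited scale and after each array was centred on its leukocyte-wide genes; circles with 95% intervals give the deposited scale, squares the centred one, and dashed lines the median of all genes tested on each. In host medulla the centring moves every gene and the all-gene median (0.07 and 2.88) by the same amount. Ctss stays negative (-3.73 and -0.92), Ctsc comes close to no difference (-0.09), and Ctsz, Ctsh, Lgmn, Ifi30 and Cst3 change sign.

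Ctsc was low in host cells of both regions. In host cortex it read 10.59, 10.72 and 7.22, against 12.92, 13.10, 12.997 and 13.01 in C57BL/6 cortex, and in host medulla 8.91, 10.91 and 10.12, against 13.05, 12.80, 12.90 and 12.78 in C57BL/6 medulla. Every host array lay below every homeostatic array, with the cortex array of mouse 8 lowest. The differences were -3.50 ± 0.54 in cortex (adjusted p 0.000278, an 11.3-fold lower signal) and -2.90 ± 0.54 in medulla (adjusted p 0.000673). Without host cortex replicate 3, the low array, the cortex difference was -2.35, and its call held without any single array. The cortex call was lost in a fit of these groups alone (limma, adjusted p 0.0978). After leukocyte centring the cortex difference was -2.44 (adjusted p 0.00302) and the medulla difference -0.09, close to 0.

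Donor cells had more Ctsc signal than host cells in the cortex of the same grafts. Donor cortex read 12.85, 12.47 and 12.38, against the host cortex values above, a difference of 3.06 ± 0.58 (adjusted p 0.00966), and Ctsc was the 1 gene of 10 that passed there (0.495% of all genes did). Without host cortex replicate 3 the difference was 1.91 (adjusted p 0.00801), and without donor cortex replicate 1 it was 2.92 (adjusted p 0.0515). After leukocyte centring it was 2.98. Fitted on these 6 arrays with mice as fixed blocks, it had an adjusted p of 0.682. Donor medulla read 11.54, 11.59 and 11.45, above all 3 host medulla arrays, with a difference of 1.55 (95% interval 0.35 to 2.75) that did not pass (adjusted p 0.468). The cortical donor-host difference exceeded the BALB/c-C57BL/6 difference by 3.33 ± 0.76 (interaction contrast, adjusted p 0.0429, passed by 0.774% of genes); the call was lost without any 1 of 9 of the 14 arrays, and the value was 2.18 without host cortex replicate 3.

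Markers of resident macrophages moved with Ctsc. The 11-gene list averaged 8.13 ± 0.42 in host cortex and 11.53 in C57BL/6 cortex, with 10 of 11 genes lower, and 8.38 ± 0.13 in host medulla and 11.62 in C57BL/6 medulla, again with 10 of 11 lower. These levels and calls are on the deposited scale. Leukocyte centring raises each host difference by 2.81 in medulla and by 1.06 in cortex, so most of the medulla gap of this list is also that of leukocyte-wide genes. Adgre1, which encodes a standard surface marker of mouse macrophages, averaged 6.65 in host cortex and 12.27 in C57BL/6 cortex, and the complement gene C1qa averaged 7.96 in host cortex and 12.24 in C57BL/6 cortex. In donor cortex and medulla the list averaged 10.71 ± 0.34 and 11.02 ± 0.59. Over the 8 group means, Ctsc correlated with this list at 0.951 and with the leukocyte-wide list at 0.769, a description over means of the same 28 arrays. Their part in the Ctsc result was not tested.

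Between the regions of the graft, host cells had less Ctss, Ctsz, Ctsh, Lgmn and Ifi30 signal in medulla than in cortex on the deposited scale, Ctsh and Lgmn turning to 0.17 and 0.46 after leukocyte centring. That is 5 of 10 genes called, all of them lower, where 4.29% of all genes were called and 2.43% were lower, and the same 5 had arrays that did not overlap, against 17.5% of all genes. Ctss averaged 9.54 ± 0.82 in host medulla and 11.81 ± 0.98 in host cortex (-2.27 ± 0.37, adjusted p 0.000392), and Ctsz averaged 8.99 ± 0.51 in host medulla and 10.71 ± 0.13 in host cortex (-1.72 ± 0.29, adjusted p 0.000576). Ctss and Ctsz were the only ones of the 5 whose call held without each single array. Ctsh (-1.41, adjusted p 0.0478), Lgmn (-1.12, adjusted p 0.0434) and Ifi30 (-1.63, adjusted p 0.0247) each lost it without any of several single arrays (adjusted p 0.0533 to 0.247). Fitted on the 6 arrays with mice as fixed blocks, 0 of 10 passed (limma, adjusted p 0.143 to 0.40 for these 5), with 5 at an unadjusted p under 0.05. Leukocyte-wide genes moved with them: 10 of 21 were lower in host medulla than in host cortex, 6 of 15 epithelium-wide genes were higher, and their part in the result was not tested. After leukocyte centring none of the 5 passed. Ctss differed by -0.69 (adjusted p 0.0618), Ctsz by -0.14 (adjusted p 0.744) and Ifi30 by -0.05. On that scale 4 other genes passed as higher in host medulla than in host cortex: Ctsb (1.31), Ctsc (2.05), Ctsd (1.59) and Cst3 (1.41). So did 11346 of the 14346 genes tested, with 109 lower and an all-gene median of 1.68. Ctsc lay above that median, and Ctsb, Ctsd and Cst3 lay below it.

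The gap of Ctss and Ctsz between medulla and cortex was wider in host cells than in C57BL/6 kidneys on the deposited scale. The medulla-cortex difference of host cells minus that of C57BL/6 cells was -2.31 ± 0.49 for Ctss (adjusted p 0.0177) and -1.79 ± 0.38 for Ctsz (adjusted p 0.0201), and 2 of 10 genes passed, where 0.899% of all genes did. The Ctss call was lost without host cortex replicate 1 or 2 or host medulla replicate 2 (adjusted p 0.0523 to 0.063), and the Ctsz call without host cortex replicate 2 or host medulla replicate 3 (adjusted p 0.0563 to 0.0588). After leukocyte centring neither Ctss (-0.56, adjusted p 0.244) nor Ctsz (-0.04, adjusted p 0.949) passed, and Ctsl (1.97), Ctsc (2.35), Ctsd (2.25) and Cst3 (1.38) did. Of all genes tested, 10201 passed on that scale as higher and 19 as lower, with a median of 1.83. Set against donor cells of the same grafts, the regional difference of host cells passed for 0 of 10 genes (limma; 3 at an unadjusted p under 0.05), where 0.0767% of all genes passed. Without host cortex replicate 3 or host medulla replicate 1, Ctss passed there (-2.53, adjusted p 0.0079, and -2.45, adjusted p 0.0367).

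Donor cells of the medulla had more Ctss and Ctsz signal than host cells of the medulla on the deposited scale. Ctss read 12.40, 11.48 and 12.31 in donor medulla, all above the host medulla values given above, with a difference of 2.52 ± 0.37 (adjusted p 0.000414). Ctsz read 10.59, 9.77 and 11.03 in donor medulla, also all above host medulla, with a difference of 1.47 ± 0.29 (adjusted p 0.0106) that was lost without donor medulla replicate 1 or 3 or host medulla replicate 3 (adjusted p 0.0674 to 0.124). These were 2 of 10 genes, where 0.592% of all genes passed, and with the mouse as a fixed block the adjusted p was 0.444 for Ctss and 0.682 for Ctsz. The donor-host difference exceeded the strain difference in medulla by 3.11 ± 0.49 for Ctss (adjusted p 0.00123, called without each single array) and by 1.61 ± 0.38 for Ctsz (adjusted p 0.0376, lost without any 1 of 9 of the 14 arrays), 2 of 10 where 1.14% of genes passed. After leukocyte centring the Ctss difference between donor and host medulla was 1.23 (adjusted p 0.0196), that of Ctsz was 0.18 (adjusted p 0.662), and the Ctsz contrast against the strain difference was -0.16. Host medulla enters this comparison and those with host cortex and C57BL/6 medulla, so the 3 share arrays.

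**Figure D3:**
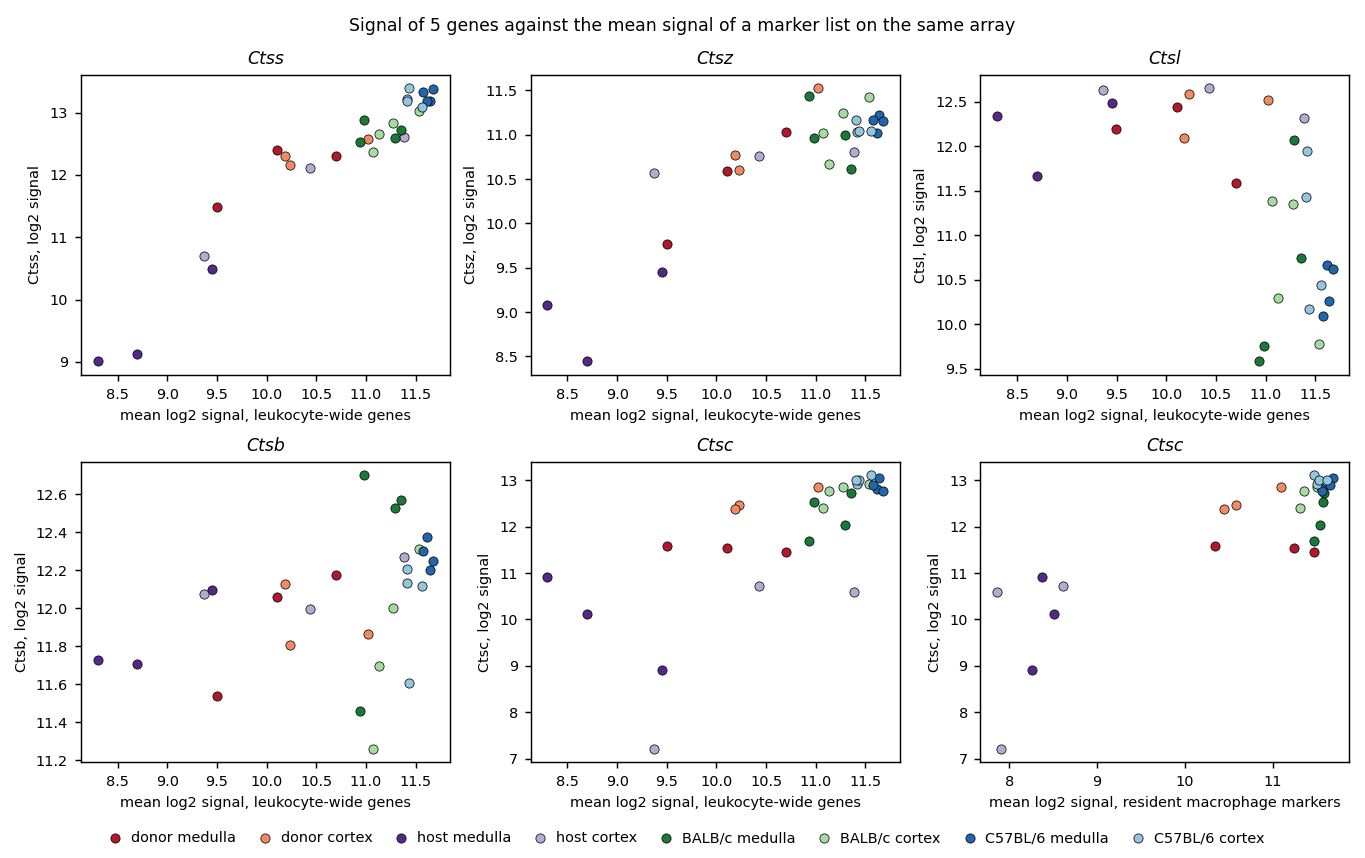
Log2 signal of Ctss, Ctsz, Ctsl, Ctsb and Ctsc (vertical axis) against the mean log2 signal of the 21 leukocyte-wide genes, and of Ctsc against the mean of the 11 resident macrophage genes (horizontal axes); each point is an array, coloured by group. Ctss and Ctsz rise along the leukocyte axis with host medulla at the low end, and host cells sit at low Ctsc and low macrophage signal. Ctsl has higher means in the graft groups than in the homeostatic groups, and the host cortex array with the highest leukocyte-wide mean of its group (11.39) also reads high in Ctsl (12.32).

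In host cortex, Ctss read 12.61, 12.11 and 10.71, against 13.22, 13.09, 13.39 and 13.19 in C57BL/6 cortex. The 3 host arrays lay below all homeostatic arrays, replicate 3 by far, and the difference was -1.41 ± 0.34 (adjusted p 0.0176). Without host cortex replicate 3 it was -0.86 (adjusted p 0.193), without C57BL/6 cortex replicate 3 it was -1.36 (adjusted p 0.0519), and after leukocyte centring it was -0.36. With Ctsc, 2 of 10 genes passed in this comparison, both lower, where 4.14% of all genes passed and 2.13% were lower. Ctsl differed by 1.54 (95% interval 0.51 to 2.56, adjusted p 0.0883) with no overlap of arrays; without C57BL/6 cortex replicate 1 it passed (1.86, adjusted p 0.0386).

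Ctsl and Ctsd had higher means in all 4 graft groups than in any homeostatic group. In donor cortex Ctsd, the aspartic protease, read 11.28, 11.78 and 11.71, against 8.40, 8.83, 10.23 and 9.97 in BALB/c cortex, and Ctsl read 12.52, 12.59 and 12.09 in donor cortex, against 11.38, 9.77, 11.35 and 10.30 in BALB/c cortex. The donor arrays lay above all BALB/c arrays for both genes, and the BALB/c arrays were widely spread. The differences were 2.23 ± 0.56 for Ctsd (adjusted p 0.0078, a 4.70-fold higher signal) and 1.70 ± 0.49 for Ctsl (adjusted p 0.0173). The Ctsl call was lost without donor cortex replicate 1 or 2 or BALB/c cortex replicate 2 or 4 (adjusted p 0.0505 to 0.0739). After leukocyte centring the differences were 3.01 for Ctsd (adjusted p 0.00396) and 2.47 for Ctsl (adjusted p 0.00629). Together with Cst3, which fell on the deposited scale but not after leukocyte centring (0.25), 3 of 10 genes passed in this comparison, where 24% of all genes did, a share near that of the members.

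In the other graft groups the same 2 genes differed by 1.21 to 1.76 log2 units, of which Ctsl in host medulla passed. After leukocyte centring all of them passed, at 2.27 to 4.57. The all-gene medians on that scale were 0.93 in donor medulla, 1.05 in host cortex and 2.88 in host medulla. Donor medulla averaged 12.07 ± 0.44 for Ctsl against 10.54 ± 1.14 in BALB/c medulla (1.54, 95% interval 0.51 to 2.56, adjusted p 0.0844), and for Ctsd 11.42 ± 0.08 against 9.90 ± 1.5 (1.52, adjusted p 0.127). BALB/c medulla replicate 3 was the high array of its group, at 12.07 for Ctsl and 11.37 for Ctsd. Without that array both passed, at 2.05 (adjusted p 0.0111) and 2.01 (adjusted p 0.0283), and replicate 1, which stands apart in the correlation check, was the lowest of its group for both. Host cortex differed from C57BL/6 cortex in Ctsd by 1.21 (95% interval 0.04 to 2.38, adjusted p 0.332). Between donor and host cells of the same region, Ctsl differed by -0.14 in cortex (95% interval -1.23 to 0.96) and by -0.09 in medulla (95% interval -1.19 to 1.00).

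Over the 8 group means Ctsl and Ctsd correlated with each other at 0.957 and with the leukocyte-wide list at -0.753 and -0.775. Epithelium-wide genes averaged 9.02 ± 0.46 in donor cortex and 7.94 ± 0.22 in BALB/c cortex, and 13 proximal tubule genes 11.48 ± 0.52 in donor cortex and 8.72 ± 0.97 in BALB/c cortex, with 10 of 13 higher. In medulla the proximal tubule list was low in both, at 7.29 in donor cells and 7.64 in BALB/c cells, while the epithelium-wide list was 9.91 ± 0.15 in donor medulla and 8.49 ± 0.27 in BALB/c medulla. Tubule cells express both proteases, and their part in the graft values was not tested.

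**Figure D4:**
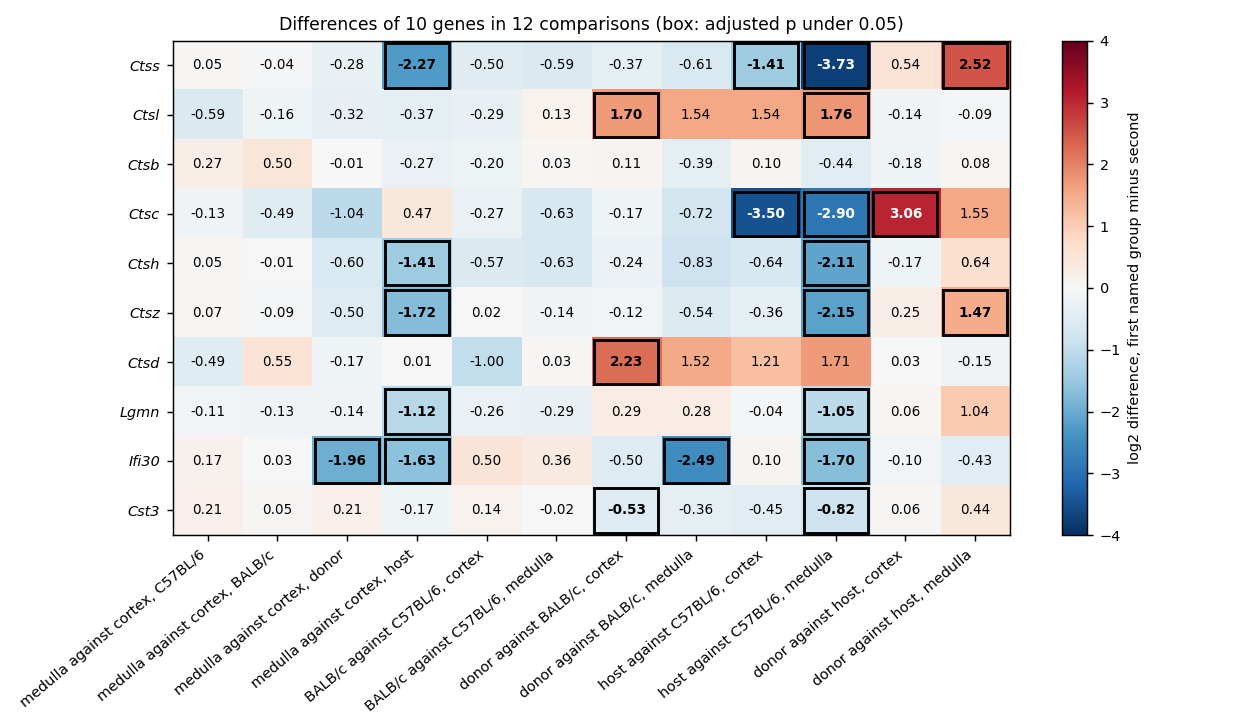
Log2 difference of the 10 genes in the 12 comparisons of groups, the group named first over the group named second; colour gives the difference on the deposited scale and a box marks an adjusted p under 0.05. The column of host against C57BL/6 medulla holds 8 boxes, 7 of them negative, and the 4 columns within or between homeostatic strains hold 0. After leukocyte centring Ctsz, Ctsh, Lgmn, Ifi30 and Cst3 in the column of host against C57BL/6 medulla change sign, and Ctsc (-0.09) no longer passes.

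Ifi30 was low in the medulla of the graft, in donor cells on both scales and in host cells on the deposited scale alone. It read 8.71, 9.28 and 9.08 in donor medulla and 8.84, 10.04 and 9.47 in host medulla, against 12.16, 11.39, 11.49 and 11.01 in BALB/c medulla and 10.87, 11.48, 11.16 and 11.09 in C57BL/6 medulla. No graft medulla array reached any homeostatic array of its strain. Against BALB/c medulla the donor difference was -2.49 ± 0.39 (adjusted p 0.00132), and it was -2.28 without BALB/c medulla replicate 1 (adjusted p 0.00715). It stayed lower after leukocyte centring (-1.45, adjusted p 0.031). Ifi30 was the 1 gene of 10 that passed there, where 3.18% of all genes did. Against C57BL/6 medulla the host difference was -1.70 ± 0.39 (adjusted p 0.00479) on the deposited scale, but 1.11 (adjusted p 0.0271) after leukocyte centring. Leukocyte-wide genes averaged 10.10 ± 0.60 in donor medulla and 11.14 ± 0.21 in BALB/c medulla, and 0 of 21 passed (limma; 12 at an unadjusted p under 0.05).

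Cortex of the same grafts gave no Ifi30 call against homeostatic cortex. Donor cortex read 11.95, 10.83 and 10.17 and host cortex 11.90, 11.07 and 10.28, so that medulla lay below cortex on every array in both kinds of cells. The differences from homeostatic cortex were -0.50 for donor cells (95% interval -1.32 to 0.32) and 0.10 for host cells (95% interval -0.71 to 0.92). Tested directly, the medulla-cortex difference of donor minus BALB/c cells, and of host minus C57BL/6 cells, did not pass for Ifi30. Between regions, donor medulla was lower than donor cortex (-1.96 ± 0.42, adjusted p 0.00924), the single call among the 10, where 2.54% of all genes were called. That call was lost without donor cortex replicate 1 (-1.48, adjusted p 0.0894), without donor medulla replicate 1 (-1.80, adjusted p 0.0571) and with the mouse as a fixed block (adjusted p 0.292). It was also lost after leukocyte centring (-1.58, adjusted p 0.236) and in a fit of these groups alone. In donor cells 12 of 13 proximal tubule genes were also lower in medulla than in cortex and 3 of 15 epithelium-wide genes higher, and their part was not tested.

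Cst3 varied little, and its homeostatic arrays all lay between 13.08 and 13.38. In donor cortex it read 12.87, 12.73 and 12.60, against 13.25, 13.26, 13.23 and 13.30 in BALB/c cortex, a difference of -0.53 ± 0.14 (adjusted p 0.0112) on the deposited scale and of 0.25 after leukocyte centring. Donor arrays lay below all BALB/c arrays. The differences of donor medulla from BALB/c medulla (-0.36, adjusted p 0.149) and of host cortex from C57BL/6 cortex (-0.45, adjusted p 0.0807) had the same sign and did not pass. Without host cortex replicate 1 the host cortex difference passed (-0.59, adjusted p 0.0177). In C57BL/6 kidneys the 4 medulla arrays (13.31 to 13.38) lay above the 4 cortex arrays (13.08 to 13.16), but the difference of 0.21 (95% interval -0.07 to 0.48) did not pass.

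Ctsb had the narrowest span of group means, 0.50 log2 units, and passed in none of the 12 comparisons on the deposited scale. Its lowest mean was 11.82 ± 0.45 in BALB/c cortex and its highest 12.31 ± 0.58 in BALB/c medulla, and neighbouring groups overlapped throughout the order. After leukocyte centring, which shifts all genes of a comparison alike, Ctsb passed as higher in host medulla than in C57BL/6 medulla (2.37, adjusted p 2.53e-06), in host medulla than in host cortex (1.31, adjusted p 0.00715) and in host cortex than in C57BL/6 cortex (1.16, adjusted p 0.0387), and as lower in donor medulla than in host medulla (-1.21, adjusted p 0.0252). The all-gene medians of these 4 comparisons after centring were, in the same order, 2.88, 1.68, 1.05 and -1.30. Most genes thus moved the same way as Ctsb. The spans of the other genes were 3.73 for Ctss, 3.50 for Ctsc, 2.49 for Ifi30, 2.23 for Ctsd, 2.15 for Ctsz, 2.12 for Ctsl, 2.11 for Ctsh, 1.18 for Lgmn and 0.82 for Cst3.

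Region and strain gave no call for the 10 genes in homeostatic kidneys. Medulla against cortex passed for 0 of 10 genes in BALB/c and in C57BL/6 mice (limma; 1 and 0 at an unadjusted p under 0.05), where 0.0697% and 0.153% of all genes passed. The 1 was Ctsb in BALB/c kidneys, at 0.50 (95% interval 0.01 to 0.99, adjusted p 0.71). BALB/c against C57BL/6 passed for 0 of 10 genes in medulla and in cortex (limma; 0 at an unadjusted p under 0.05), where 9.11% and 9.91% of all genes passed. The regional differences of BALB/c minus C57BL/6 cells and of donor minus BALB/c cells also passed for 0 of 10 genes (limma; 0 and 1 at an unadjusted p under 0.05), where 0.0418% and 0.453% of all genes passed. Intervals were wide for some genes: the largest strain difference was that of Ctsd in cortex, -1.0 (95% interval -2.08 to 0.08), with BALB/c arrays between 8.40 and 10.23 and C57BL/6 arrays between 9.79 and 10.74. Ctss was -0.59 in medulla (adjusted p 0.202), and all 4 BALB/c arrays (12.53 to 12.88) lay below the C57BL/6 arrays (13.18 to 13.37).

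Genes that handle the same cargo were read from lists drawn up for the pathway. MHC class II chains and their loading factors were lower in host medulla than in C57BL/6 medulla for 8 of 8 genes tested: the invariant chain Cd74 averaged 8.83 in host medulla and 12.86 in C57BL/6 medulla (-4.03, adjusted p 2.01e-08), H2-Ab1 differed by -3.70 (adjusted p 8.61e-07) and H2-Eb1 by -2.66 (adjusted p 1.57e-09). After leukocyte centring 2 of the 8 passed and 4 changed sign, H2-Eb1 among them. In host cortex 5 of 8 were lower, among them Cd74 (-1.87, adjusted p 0.00121) and the loading regulator H2-Ob (-2.68, adjusted p 0.000316), and in donor cortex 4 of 8 were lower than in BALB/c cortex, among them H2-Eb1 (-1.20, adjusted p 0.000212). After leukocyte centring 1 of the 8 passed in host cortex and 0 in donor cortex. Of all genes tested, 4318 passed there as higher and 114 as lower in host cortex, and 2261 and 19 in donor cortex. The strains themselves differed in this list, H2-Ob differing by -2.96 in medulla and -2.83 in cortex (BALB/c minus C57BL/6). Class II protein was also one of the sort markers.

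Among 11 other lysosomal proteases, Prcp, a carboxypeptidase, was the 1 lower in host medulla (7.74 against 10.57 in C57BL/6 medulla, -2.84, adjusted p 5.4e-06), and Ctse, an aspartic protease, was the 1 higher in host cortex (10.58 against 7.72 in C57BL/6 cortex, 2.86, adjusted p 0.0289). After leukocyte centring Prcp differed by -0.02, and 10 of the 11 proteases passed in host medulla. Of all genes tested, 13725 passed on that scale as higher and 83 as lower, so passing there did not set the proteases apart. Of 4 other inhibitors tested, Cst7, the leukocyte cystatin that inhibits Ctsc and is made by natural killer cells among others, was higher in host cortex (8.80 against 7.46 in C57BL/6 cortex, 1.34, adjusted p 0.000271), while a list of 7 natural killer cell genes averaged 8.27 ± 0.93 there and 6.47 to 7.07 in the other 7 groups. Cst7 was also lower in donor cortex than in host cortex (-1.56, adjusted p 0.000385). Cstb, a cytosolic cystatin, was higher in donor cortex than in BALB/c cortex (11.23 against 9.25, 1.98, adjusted p 0.00276). In that comparison Cst6 (-0.84) and Cst7 (-0.68) were lower, so 3 of the 4 inhibitors passed, where 24% of all genes did. After leukocyte centring Cstb differed by 2.75, Cst6 by -0.06 and Cst7 by 0.10. In those comparisons the members moved as given above: Ctsc lower in host cortex, Ctsl and Ctsd higher in donor cortex.

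Of 24 lysosomal hydrolases and activators, 5 were lower and 1 higher in host medulla than in C57BL/6 medulla, and 2 of the 5 changed sign after leukocyte centring. The lower ones included the ganglioside activator Gm2a (8.01 against 11.63, -3.63, adjusted p 4.58e-07), the mannosidase Man2b1 (-2.89, adjusted p 8.37e-07) and the acid lipase Lipa (-3.21, adjusted p 7.58e-05), and the higher one was the acid sphingomyelinase Smpd1 (11.22 against 8.50, 2.72, adjusted p 0.00841). After leukocyte centring Gm2a differed by -0.82, Man2b1 by -0.08 and Lipa by -0.39, and 19 of the 24 passed. Smpd1 falls outside the naming rule and was chosen after its value was seen. Of 12 lysosomal membrane proteins 2 were lower there, Laptm5 (-4.20, adjusted p 3.24e-06), which is also among the leukocyte-wide genes, and the macrophage marker Cd68 (-3.37, adjusted p 0.000831). None of 14 subunits of the proton pump that acidifies the lysosome passed in host cells of either region (limma; 1 in medulla and 2 in cortex at an unadjusted p under 0.05) on the deposited scale, but 14 in medulla and 5 in cortex did after leukocyte centring. On the centred scale 13725 of all genes tested passed as higher in host medulla and 4318 in host cortex. In donor cortex Atp6v1a was higher than in BALB/c cortex (11.08 against 8.38, 2.70, adjusted p 0.000299) and Atp6v0b lower (-1.65, adjusted p 0.00201). Of 12 sorting and control genes, the sorting receptor Sort1 was higher in host medulla (2.75, adjusted p 0.000141) and in host cortex (1.74, adjusted p 0.0232).

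The genes whose group means were most like those of a member over the 8 groups are given as a description of pattern alone. For Ctss they were Cybb (Pearson r 0.987) and Fyb (0.986), for Ctsz Lcp1 (0.992) and Ifnar2 (0.992), and for Ctsh Prkcd (0.992) and Itgb2 (0.987). For Ctsl the nearest was Clu (0.993), and for Ctsd it was Nedd4 (0.998). For Ctsc the nearest were Cadm1 (0.977), Ch25h (0.972) and Mmp12 (0.972), and for Ifi30 A4galt (0.960) and Psmb8 (0.959). Leukocyte-wide genes correlated over the same means at 0.966 with Ctss, 0.955 with Ctsh and 0.932 with Ctsz, and at 0.694 with Lgmn and 0.524 with Ctsb. All of these use the same 28 arrays, and the group of host medulla lies at one end of most of them.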

How the data were processed

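Expression was measured in 28 samples of sorted renal dendritic cells on Affymetrix arrays, after amplification with the Nugen Ovation One-Direct System per the labels' protocols. The deposited values are log2 signal that the authors made with oligo's RMA per the submitters' processing notes (its version is not given in the sources used here). RMA quantile-normalizes all arrays to 1 distribution, so each value is relative to all probes of its array. The number of arrays limits the precision.

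Of 22549 probesets, 20646 map to 1 gene symbol, 551 to several and 1352 to none; the brightest single-symbol probeset by mean over the 28 arrays was kept for each of 19272 genes. A gene was tested if at least 3 arrays had it above their own 40th percentile of single-symbol probesets (14346 genes). Groups, taken from the labels, were compared with limma 3.58.1 (R 4.3.3): a model of 8 group means on the 28 arrays together (20 residual degrees of freedom), 2-sided tests, Benjamini-Hochberg adjustment over the genes tested, and a threshold of 0.05. There were 12 comparisons of groups and 6 interaction contrasts; the procedure was checked on simulated data. Members, comparisons and all gene lists were chosen with earlier results of these data known. Genes named beside the members are, per pathway list and comparison, up to 3 with the smallest adjusted p, and up to 3 most alike each member over group means.

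Mouse numbers in the labels join the regions of 11 mice, and donor and host cells of a graft. Residuals from the group means of arrays of 1 mouse correlated on average at 0.155 between donor medulla and cortex, 0.106 between host medulla and cortex, 0.22 between cells of 1 graft cortex, 0.171 between cells of 1 graft medulla, -0.006 between regions of BALB/c and -0.003 between regions of C57BL/6 kidneys. Alternatives were a replicate block for mouse (fixed or random), no filter or a stricter one, a second quantile normalization, centring on 21 leukocyte-wide genes, a variance trend with robust moderation, only the groups compared, the mean of all probesets, and leaving out each array.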

Additional observations from a re-analysis of the deposited data

Results flagged for a closer look

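In groups of 4 arrays, a single array far from the other 3 was looked for in 40 combinations of gene and group, as the gap to the nearest array over the range of the group, with a critical value of 0.829. Ctsb in C57BL/6 cortex had a ratio of 0.846, with replicate 3 low (11.61 against 12.11 to 12.21). Ctsb in BALB/c medulla had a ratio of 0.864, with replicate 1 low (11.46 against 12.53 to 12.70); this is the array that correlates least with its own group. Ctsz in C57BL/6 cortex had a ratio of 0.913, with replicate 4 high (11.16 against 11.03 to 11.05). Chance flags about 1 in 20 groups.

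Tests of a difference between differences passed for 3 genes. The medulla-cortex difference of host cells minus that of C57BL/6 cells was -2.314 for Ctss and -1.791 for Ctsz. After centring on leukocyte-wide genes these were -0.56 (adjusted p 0.244) and -0.04 (adjusted p 0.949). Minus the BALB/c-C57BL/6 difference, the donor-host difference was 3.329 for Ctsc in cortex, and 3.114 for Ctss and 1.612 for Ctsz in medulla.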

How the results depend on the processing

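Of 28 calls on single genes (comparisons and contrasts), 28 held with the mouse as a random replicate block, 27 under a second quantile normalization, and 26 each without the filter, with the strict filter and with a variance trend. Averaging all probesets of a gene tests nothing here, since each member has 1. In fits of the groups compared alone 11 held, and 167 of 222 held when 1 array was left out. With the mouse as a fixed replicate block, 0 of the 9 calls on groups paired by mouse held, with values unchanged: members passing were 0 instead of 5 for host medulla against host cortex, 0 instead of 1 for donor medulla against donor cortex, 0 instead of 1 for donor against host cortex and 0 instead of 2 for donor against host medulla (limma; 5, 2, 1 and 3 at an unadjusted p under 0.05). The blocked fit has fewer arrays and degrees of freedom.

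Centring on leukocyte-wide genes kept 9 calls, lost 10 and reversed 9. The reversed values were 0.17 for Ctsh and 0.46 for Lgmn between host regions, 0.25 for Cst3 in donor against BALB/c cortex, 0.71 for Ctsh, 0.66 for Ctsz, 1.76 for Lgmn, 1.11 for Ifi30 and 1.99 for Cst3 in host against C57BL/6 medulla, and -0.16 for Ctsz in the donor-host difference less that of the strains in medulla. Members passing became 7 for host against C57BL/6 medulla (1 lower), 4 for the host regions (Ctsb, Ctsc, Ctsd and Cst3, all higher), 0 for the donor regions, 4 for donor against BALB/c medulla, 4 for host against C57BL/6 cortex, 4 for the regional difference of host minus C57BL/6 cells (Ctsl, Ctsc, Ctsd and Cst3), and 0 in cortex and 5 in medulla for the donor-host difference less that of the strains. Most genes tested also passed after this centring for host against C57BL/6 medulla (13725 as higher) and for the host regions (11346 as higher). For donor against BALB/c medulla 3155 of the 14346 genes tested passed as higher and 21 as lower. For host against C57BL/6 cortex 4318 passed as higher and 114 as lower. For the regional difference of host minus C57BL/6 cells 10201 passed as higher. For the donor-host difference less that of the strains in medulla 9901 passed as lower. Centring adds 1 constant to all genes of a comparison, so it changes what 0 means and no gene's distance from the others.

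Fits of the groups alone passed 0 members for the donor regions, the host regions, donor against BALB/c medulla, host against C57BL/6 cortex, donor against host cortex and donor against host medulla (limma; 2, 5, 3, 7, 1 and 4 at an unadjusted p under 0.05), 1 for donor against BALB/c cortex, and 0 in cortex and 1 in medulla for the donor-host difference less that of the strains. That last contrast passed 1 member in medulla also under a second quantile normalization and with a variance trend, and 0 in cortex under the strict filter; without the filter 3 members passed between host regions. Beyond smaller fits, the causes were not tested. Leaving out 1 array gave 0 to 1 members for the donor regions, 2 to 4 for the host regions, 2 to 3 for donor against BALB/c cortex, 1 to 3 for donor against BALB/c medulla, 1 to 3 for host against C57BL/6 cortex, 6 to 8 for host against C57BL/6 medulla, 0 to 1 for donor against host cortex, 1 to 2 for donor against host medulla, 0 to 2 for the regional difference of host minus C57BL/6 cells, 0 to 1 for that of host minus donor cells, and 0 to 1 in cortex and 1 to 2 in medulla for the donor-host difference less that of the strains.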
